A study of Homo sapiens with 8 samples.

Results

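The comparison described here set NeuT cells against Empty cells after both had been exposed to JG-98, an inhibitor of Hsp70 chaperones. Its members are the 4 treated libraries of the 8 in the series, chosen by their labels: 2 of NeuT and 2 of Empty. All cells were MCF-10A, an established non-tumorigenic human breast epithelial line, kept in a medium with horse serum, epidermal growth factor, hydrocortisone, insulin and cholera toxin. Treated cells received 1 µM JG-98 for 12 h, and the untreated libraries, again 2 of NeuT and 2 of Empty, served as controls for each line. The labels do not spell out what NeuT or Empty cells carry. In breast cell work the name NeuT usually stands for the oncogenic rat version of ERBB2, and Empty for cells with a vector alone. No label gives the promoter of a transgene or says whether a line was 1 clone or a pool. The series' design text asks how sensitive transformed cells are to the drug. The comparison addresses which differences between the lines were present under the drug, and which of them differed in size from those without it.

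Hsp70 chaperones bind unfolded segments of proteins, and cochaperones of the BAG and DNAJ families set the pace of binding and release. BAG3 links Hsp70 to signalling and to autophagy, and JG-98 interferes with that link. The series' title names HRI, a kinase encoded by EIF2AK1 that phosphorylates the translation factor eIF2α. That phosphorylation lowers general translation while the mRNA of the transcription factor ATF4 is translated more. ATF4 and its partners then raise genes for amino acid synthesis, amino acid uptake, tRNA charging and, with lasting stress, cell death. This programme is called the integrated stress response.

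The libraries held between 55050996 and 56861971 counts, except for Empty treated replicate 1 with 37341458. The count table listed 60617 genes, of which 31967 had a count in any library and 17693 were abundant enough to test. Levels are given as CPM, counts divided by the library size in units of 1e+06 after TMM scaling, and are not adjusted for gene length. A count of 0 allows a level of up to 3 counts, or 0.0787 CPM at the lowest depth and 0.0511 CPM at the highest. Reads from PCR copies of 1 molecule are counted separately here, so these floors, and the intervals given for ratios of counts, cover counting error only. The treated NeuT libraries lay further apart from each other than the replicates of the other groups, with a median log2 difference between replicates of 0.129 in treated NeuT, 0.11 in treated Empty, and 0.0841 and 0.0807 in untreated NeuT and Empty. The labels do not say whether replicates came from separate cultures, so p-values measure only the spread between these libraries, which may be technical.

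Most differences between the lines were present with and without the drug. Under JG-98, edgeR's quasi-likelihood test with Benjamini-Hochberg adjustment called 7380 of 17693 genes (41.7%) at an adjusted p under 0.05. Of these, 3839 (21.7%) were higher in NeuT and 3541 (20.0%) were lower. That balance depends on the scaling, since library totals without TMM factors gave 3106 higher and 4465 lower. Without the drug 7423 genes (42.0%) were called, 3748 (21.2%) higher and 3675 (20.8%) lower. A total of 5750 genes (32.5%) were called in the same direction in both comparisons, which is 77.5% of the calls without the drug and 77.9% of the calls under it. The comparisons share no library. Among these shared calls the median size of the log2 difference was 0.54 in each comparison, and 3119 genes had the larger size under the drug against 2631 with the smaller.

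Persistence was not limited to small or to large differences. Of the 3716 genes called without the drug at a size under 0.5 on the log2 scale, 72.2% were called in the same direction under it. The share was 86.1% for sizes of 0.5 to 1, 81.9% for 1 to 2, 70.5% for 2 to 4 and 76.8% for 4 or more. Across genes, the log2 differences with and without the drug had a Pearson r of 0.772, a description over genes, which are not independent replicates.

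**Figure D1:**
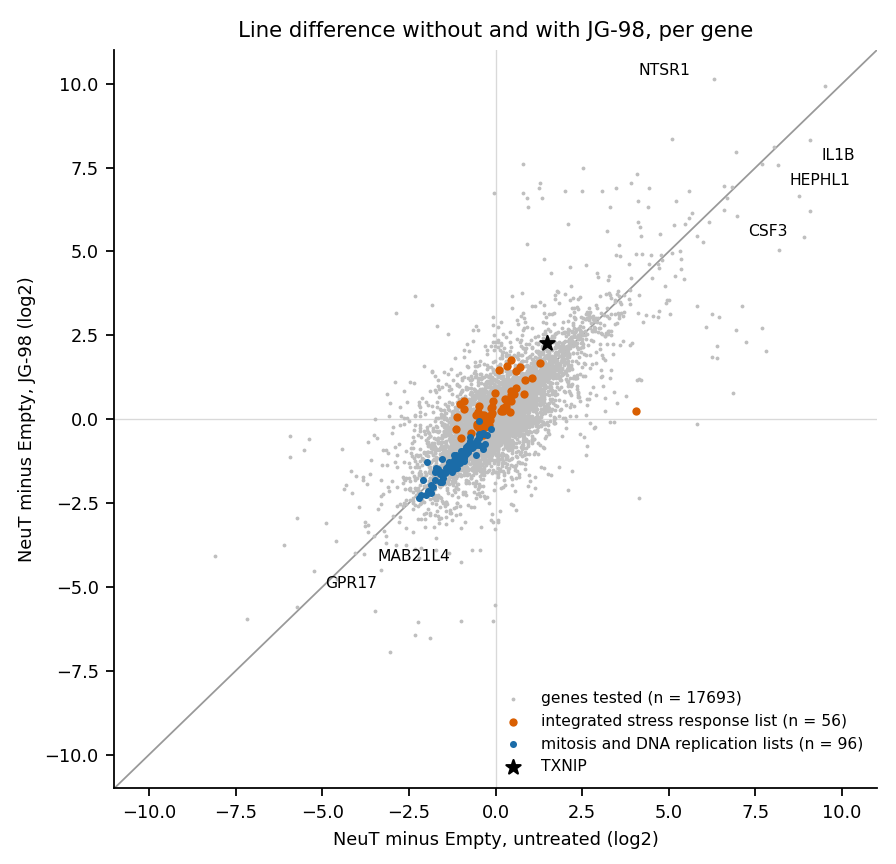
Each point is 1 of the 17693 genes tested, with the log2 difference NeuT minus Empty without the drug on the x axis and under JG-98 on the y axis; the diagonal marks equal differences. Mitosis and DNA replication genes (blue) sit near the diagonal below 0, most integrated stress response genes (orange) sit above the diagonal, and TXNIP (star) lies at 1.48 and 2.28. Fitted differences of genes with counts near 0 in one group, such as NTSR1, depend on the small prior count edgeR adds, and the orange point far to the right is FGF21, which had 0 counts in both untreated Empty libraries.

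A further 1670 genes were called without the drug and not under it. Their median size was 0.36 on the log2 scale without the drug and 0.16 under it, and 1477 of them had the same sign under the drug. For 1023 of them the 95% interval of the difference under the drug lay within 0.5 of 0 on the log2 scale. Another 1627 genes were called under the drug alone, with a median size of 0.37 under the drug and 0.16 without it, and 1461 had the same sign in both. A call in one comparison and not in the other does not show that the difference itself moved. The interaction of line and drug, the difference between both line differences, tests that directly.

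That test called 1 gene (0.00565%), and 1378 genes (7.79%) had an unadjusted interaction p under 0.05. Of the latter, NeuT minus Empty was larger under the drug for 828 (4.68%) and smaller for 550 (3.11%). The count of called genes rested on the treated NeuT libraries and rose when either of them was left out. A fit without 1 library leaves 1 library in that group, so the spread is taken from the other groups alone. Calls from such fits, here and below, show how far a result depends on 1 library and add no support to it. DESeq2 called 26 genes on all libraries. The 7380 calls of the line difference under the drug moved less, from 5951 to 7409 over the fits that left out 1 library.

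The called gene was TXNIP (ENSG00000265972, GRCh38 chromosome 1, 145992435 to 145996600), which encodes thioredoxin-interacting protein, an inhibitor of thioredoxin that also lowers glucose uptake. Its level was 103 and 100 CPM in treated Empty and 478 and 508 CPM in treated NeuT, 4.86 times as high by the group means. Without the drug it was 149 and 154 CPM in Empty and 432 and 415 CPM in NeuT. The groups of libraries did not overlap: treated Empty was the lowest and treated NeuT the highest. The log2 difference between the lines was 1.48 (edgeR adjusted p 2.2e-12) without the drug and 2.28 (SE 0.056, edgeR adjusted p 2.5e-14) under it. The gap was thus wider under the drug by 0.80 (SE 0.076, 95% interval 0.64 to 0.96, edgeR interaction adjusted p 1.8e-04). Over the alternatives that gave a value for it, this widening ranged from 0.74 to 0.84 and stayed called. It is under 1 on the log2 scale and was not called where a minimum difference of 1 was required.

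TXNIP is known as a target of MondoA and ChREBP, transcription factors that respond to glucose phosphates and bind pairs of E-box-like motifs called carbohydrate response elements. The stretch of its promoter that lies within 250 bases before the RefSeq start is shown because it holds such a pair. It is GRCh38.p14 chr1:145996580-145996829, read on the minus strand, with each CACGAG in capitals.
TXNIP promoter: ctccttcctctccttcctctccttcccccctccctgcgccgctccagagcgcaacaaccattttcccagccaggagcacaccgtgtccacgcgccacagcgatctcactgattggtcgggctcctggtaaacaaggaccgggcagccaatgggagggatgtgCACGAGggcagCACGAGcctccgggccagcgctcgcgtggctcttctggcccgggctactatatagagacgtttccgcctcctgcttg
The copies begin 88 and 77 bases before the start. CACGAG or its reverse CTCGTG occurs in 2380 of 35116 RefSeq promoters of 300 bases (6.78%), counting promoters with 1 copy or more; pairs were not counted. ARRDC4, a relative of TXNIP known to share this regulation, had 12 and 10.9 CPM in treated Empty and 14.7 and 15.6 CPM in treated NeuT. Its log2 difference was -0.04 without the drug (edgeR adjusted p 0.713) and 0.41 under it (edgeR adjusted p 0.0016). Its interaction was 0.45 with an edgeR adjusted p of 0.448.

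In the integrated stress response list the balance between the lines turned from lower to higher in NeuT. Of its 56 tested genes, 28 were called higher and 11 lower in NeuT under the drug, which is 50% and 19.6% against 21.7% and 20.0% of all genes. Without the drug 17 were higher and 25 lower, and without Empty untreated replicate 2 the number higher was 10. The median log2 difference was 0.26 under the drug and -0.12 without it (-0.192 with total counts in place of TMM), beside medians over all genes of 0 and -0.02. Of the 25 that were lower without the drug, 11 were still lower under it, 12 were not called and 2 were higher. Another 9 went from not called to higher, and 17 were higher in both.

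Interactions of the members leaned to one side. None was called by edgeR, while DESeq2 called 11 of them, each with NeuT minus Empty larger under the drug, among its 26 calls over all genes. With no filter on low counts edgeR called 21 on all libraries. Calls by edgeR also appeared when either treated NeuT library was left out, more of them without replicate 1, but such fits leave 1 library in that group. NeuT minus Empty was larger under the drug for 52 of 56 members, with a median of 0.31, and 33 members (58.9%) had an unadjusted interaction p under 0.05 against 7.79% of all genes. In 32 of these the difference was larger under the drug. The members share their regulators and their libraries, so they are not independent. Expressed as the median shift of members from untreated Empty on the log2(CPM + 0.5) scale, the treated Empty libraries stood at 0.39 and 0.31, the untreated NeuT libraries at -0.14 and -0.13, and the treated NeuT libraries at 0.50 and 0.71. Both treated NeuT libraries were thus above both treated Empty ones, and NeuT treated replicate 2 stood furthest from the rest. The median difference under the drug was 0.394 without NeuT treated replicate 1 and 0.137 without NeuT treated replicate 2. The number of members called lower under the drug was 5 without Empty treated replicate 1, 6 without NeuT treated replicate 1, 7 in a fit of the 4 treated libraries alone, and 16 without NeuT treated replicate 2. The part of this library difference in the list's counts was not tested.

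ATF4 and its partners act through a composite site, the C/EBP-ATF response element, whose core reads TGATGNAA. The core or its reverse TTNCATCA occurred in 18 of the 70 RefSeq promoters of the list's genes (25.7%) and in 1270 of all 35116 (3.62%), counting 250 bases before to 50 after each start. Of the 56 tested members, 46 matched a promoter entry and 18 of these held a match. The windows below, 30 bases each from GRCh38.p14, are shown for 6 members described in the next paragraphs, read on the strand that carries the core, which is in capitals. A match is a description of letters and not evidence of binding in these cells. The list was made of genes of the programme that ATF4 and its partners raise. Its higher share thus describes the choice of genes and is not a result of these data.
ATF3, chr1:212565205-212565234, plus strand: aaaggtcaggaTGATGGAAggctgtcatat
CEBPG, chr19:33374060-33374089, plus strand: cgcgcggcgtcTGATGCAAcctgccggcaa
JDP2, chr14:75427995-75428024, plus strand: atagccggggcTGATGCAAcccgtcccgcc
CHAC1, chr15:40953251-40953280, minus strand: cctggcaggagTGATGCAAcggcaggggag
SLC1A4, chr2:64989381-64989410, minus strand: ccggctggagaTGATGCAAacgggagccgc
CARS1, chr11:3057407-3057436, plus strand: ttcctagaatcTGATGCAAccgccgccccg
These 6 are not all the matches. Those of SLC3A2 (TGATGTAA) and SLC7A1 (TGATGAAA), also members, lie wholly after the start and are not printed. The printed cores begin before the start, and those of CARS1 and SLC1A4 run past it.

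Among the transcription factors of the list, 6 of 8 were higher and 2 lower in NeuT under the drug, against 2 higher and 3 lower without it. ATF4 itself (ENSG00000128272, chromosome 22, 39519695 to 39522685) was one of the 2 lower ones. It stood at 356 and 334 CPM in treated Empty and at 249 and 310 CPM in treated NeuT. Untreated Empty had 249 and 237 CPM and untreated NeuT 110 and 111 CPM. Of the treated NeuT libraries, 1 was above both untreated Empty libraries and the other was level with the higher of them to 3 digits. The log2 difference between the lines was -1.14 without the drug (edgeR adjusted p 9.4e-08) and -0.30 under it (SE 0.082, edgeR adjusted p 0.00828). The interaction was 0.83 (95% interval 0.58 to 1.08), with an edgeR adjusted p of 0.0579, which ranged from 3.1e-19 to 0.418 over the alternatives. Without Empty treated replicate 1 the difference under the drug lost its call (edgeR adjusted p 0.0845). It was -0.14 without NeuT treated replicate 1 and -0.47 without NeuT treated replicate 2, both called.

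NUPR1 (chromosome 16, 28532708 to 28539174), a small stress-induced chromatin protein, was called lower in NeuT without the drug and higher under it. It had 15.5 and 15.9 CPM in untreated Empty, 7.77 and 9.07 in untreated NeuT, 38.2 and 32.6 in treated Empty, and 43.3 and 60 in treated NeuT. The lowest group without the drug held the highest libraries under it. The log2 difference was -0.90 (edgeR adjusted p 9.5e-04) and then 0.55 (SE 0.14, edgeR adjusted p 0.0089), and the interaction of 1.45 had an edgeR adjusted p of 0.122. Without Empty treated replicate 2 the call under the drug was lost, at 0.44 and an edgeR adjusted p of 0.076. The difference was 0.30 without NeuT treated replicate 2, still called. DDIT3, which encodes the death-promoting factor CHOP, was at 4.62 and 4.42 CPM in treated Empty and 11.4 and 15.8 CPM in treated NeuT. Its log2 difference was 0.33 without the drug, not called, and 1.59 under it (SE 0.15, edgeR adjusted p 2.4e-07). Other genes overlap 39.6% of DDIT3's exon bases, so its reads may be split. ATF3 went from 0.45 to 0.83, JDP2 from -0.07 to 0.53 and CEBPG from -0.11 to 0.37, and the 3 values under the drug were called. ATF5 was lower in NeuT in both comparisons, at -0.35 and -0.47, and 22.1% of its exon bases overlap other genes.

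Feedback and effector genes were already higher in NeuT without the drug for 10 of 13 members, and 11 were higher under it. CHAC1 (chromosome 15, 40952962 to 40956512), which degrades glutathione, had 2.04 and 1.4 CPM in untreated Empty and 2.36 and 2.32 in untreated NeuT. Under the drug it had 13.9 and 9.96 CPM in Empty and 28.2 and 51.6 CPM in NeuT. The treated NeuT libraries were both higher than both treated Empty ones, and they lay far from each other. Its log2 difference of 1.76 (SE 0.36) was called at an edgeR adjusted p of 0.015, and the p rose to 0.0676 among alternatives. SESN2, a stress-induced inhibitor of the growth kinase mTORC1, differed by 1.27 without the drug and 1.69 under it. TRIB3, a pseudokinase that restrains ATF4, differed by 0.60 and 0.94, and PPP1R15A, which directs the phosphatase for eIF2α, by 0.86 and 1.16. All 3 were called in both comparisons.

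Secreted factors of the list were higher under the drug for 4 of 5 members. GDF15 (chromosome 19, 18374731 to 18389176), a circulating stress hormone, had nearly equal levels without the drug, at 26.8 and 26.5 CPM in Empty and 25.8 and 27 CPM in NeuT. Under the drug it had 61.4 and 48.9 CPM in Empty and 88.6 and 101 CPM in NeuT. A gap of 0.79 (SE 0.093, edgeR adjusted p 6.3e-06) was thus present under the drug where -0.01 was measured without it, and the interaction of 0.80 had an edgeR adjusted p of 0.122. STC2, a secreted glycoprotein, differed by 0.59 and 1.43, and ADM2, a peptide hormone, by 0.70 and 1.57. VEGFA was about equally higher in NeuT in both comparisons, at 0.83 and 0.75. FGF21, the member not called, had fewer than 1 CPM in every library.

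Amino acid enzymes and transporters had fewer members called lower in NeuT under the drug than without it. Of 10 metabolic enzymes, 7 were lower in NeuT without the drug, and under it 1 was lower (SHMT2) and 1 higher (PHGDH). CTH, which makes cysteine from cystathionine, had 6.17 and 5.35 CPM in untreated Empty and 2.63 and 2.73 CPM in untreated NeuT. Under the drug it had 10.1 and 10.4 CPM in Empty and 8.92 and 12.5 CPM in NeuT, and the libraries of both lines overlapped. The log2 difference went from -1.10 (edgeR adjusted p 3.1e-05) to 0.06 (95% interval -0.23 to 0.36, edgeR adjusted p 0.768), with an interaction of 1.16 (edgeR adjusted p 0.124). PSAT1 of serine synthesis went from -0.54 to -0.13, and ALDH1L2 of mitochondrial folate metabolism from -0.51 to 0.22, neither called under the drug. The value of ALDH1L2 under the drug ranged from 0.03 to 0.40 over the alternatives, and it was called with no filter on low counts. MTHFD2, of the same pathway, went from -0.44 to -0.02, with a 95% interval of -0.17 to 0.13 under the drug, and 33.6% of its exon bases overlap other genes. ASNS, asparagine synthetase, was read at under 2 CPM in every library, and 49.3% of its exon bases overlap other annotated genes, so its values are uncertain.

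Of the 8 amino acid transporters, 6 were lower in NeuT without the drug and 3 were lower under it, while the number higher went from 1 to 3. SLC6A9, a glycine transporter, was called lower without the drug and higher under it: 23.5 and 23.4 CPM in treated Empty stood against 25.8 and 35.2 CPM in treated NeuT, where the untreated levels were 14.9 and 12.7 in Empty and 9.63 and 10.1 in NeuT. Its log2 difference of 0.38 under the drug (edgeR adjusted p 0.0224) was 0.14 without NeuT treated replicate 2, where the edgeR adjusted p was 0.337, and 0.59 without NeuT treated replicate 1. The call was also lost with total counts and without either treated Empty library (edgeR adjusted p up to 0.109). The call without the drug was lost without Empty untreated replicate 1 and without NeuT untreated replicate 1 (edgeR adjusted p up to 0.101). SLC7A11, the cystine importer, had 28.6 and 28.1 CPM in treated Empty and 63.4 and 94.9 CPM in treated NeuT. Without the drug it had between 11.3 and 14.4 CPM in all 4 libraries. Its gap of 1.48 (SE 0.2, edgeR adjusted p 0.00134) was therefore seen under the drug, beside 0.11 without it, and the interaction of 1.37 had an edgeR adjusted p of 0.49. SLC1A4, a neutral amino acid carrier, went from -1.02 to 0.46, the latter not called. Under the drug it was 0.77 and called without NeuT treated replicate 1, and 0.09 without NeuT treated replicate 2; with no filter on low counts it was called at 0.47. The call without the drug was lost without NeuT untreated replicate 2 (edgeR adjusted p 0.056). SLC7A5, the large neutral amino acid transporter, stayed lower in NeuT: 1670 and 1740 CPM in treated Empty stood against 1050 and 1250 CPM in treated NeuT, a difference of -0.57 (edgeR adjusted p 6.0e-06). Without the drug it had 1600 and 1520 CPM in Empty and 771 and 789 CPM in NeuT. Its partner chain SLC3A2 stayed lower too, at -0.40 after -0.71.

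The tRNA synthetases differed in small steps. NeuT minus Empty was larger under the drug for 12 of 12, with a median interaction of 0.26. Lower calls went from 8 to 5 and higher calls from 2 to 3. EPRS1 went from -0.54 to -0.19 and YARS1 from -0.51 to -0.21, and both stayed called. CARS1 went from -0.12 to 0.34 and was called under the drug. WARS1, a synthetase that interferon also induces, was higher in both comparisons, at 0.45 and 0.71.

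**Figure D2:**
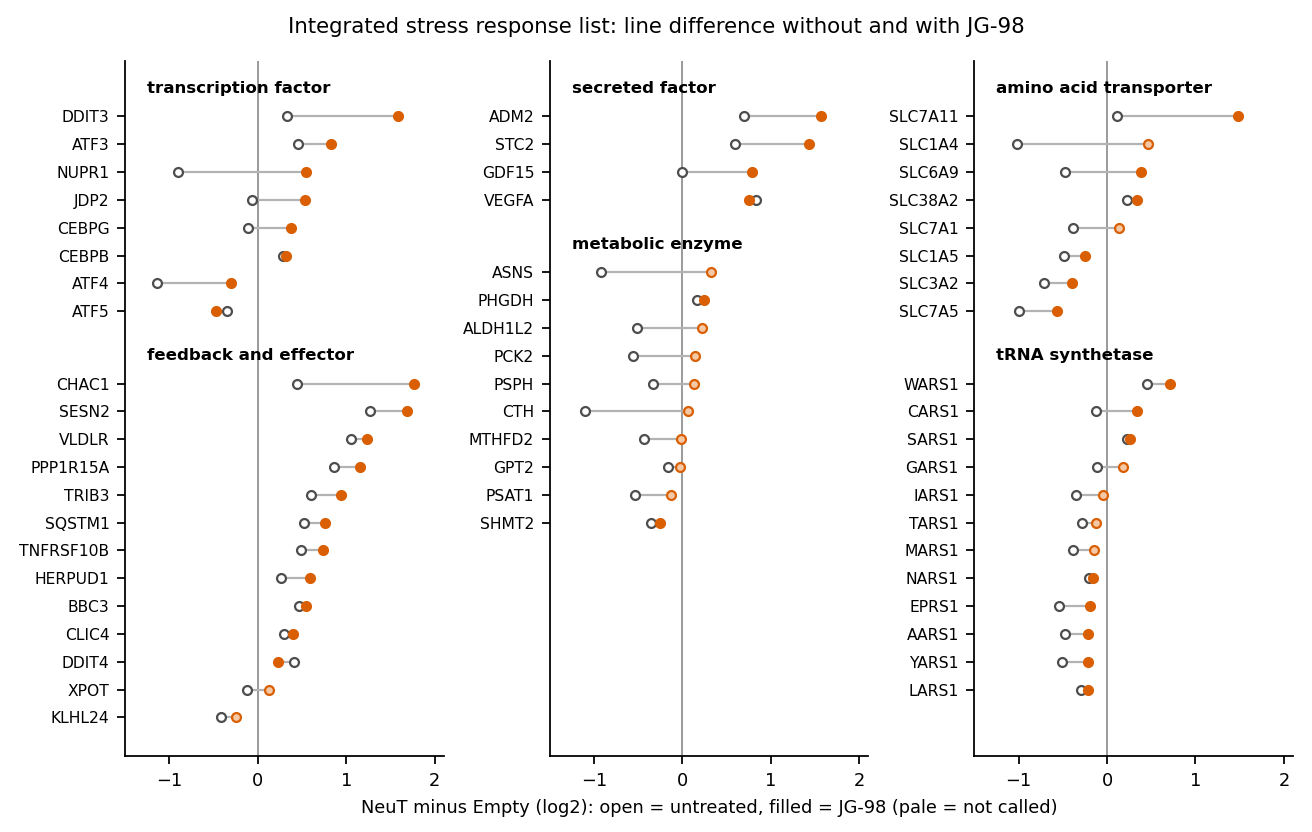
Each row is a tested member of the integrated stress response list, with the log2 difference NeuT minus Empty without the drug (open circle) and under JG-98 (filled; pale where not called), grouped by role; FGF21, at under 1 CPM throughout, is left out. Filled circles lie to the right of open ones for most genes: CTH moves from -1.10 to 0.06 and SLC7A11 from 0.11 to 1.48, while ATF5, VEGFA and DDIT4 lie slightly to the left.

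EIF2AK1 (chromosome 7, 6022247 to 6059175), the gene of HRI, was slightly lower in NeuT under the drug. It had 158 and 166 CPM in treated Empty and 141 and 133 CPM in treated NeuT, a log2 difference of -0.25 (edgeR adjusted p 0.00191) after -0.16 without the drug. HSPA8, the constitutive Hsp70, had 3240 and 3210 CPM in treated Empty and 3200 and 3000 CPM in treated NeuT (-0.06, 95% interval -0.16 to 0.05). BAG3 had 228 and 230 CPM in treated Empty and 213 and 220 CPM in treated NeuT (-0.08, 95% interval -0.19 to 0.03). Neither was called by edgeR, at adjusted p of 0.411 and 0.229. With total counts in place of TMM scaling, edgeR called both, HSPA8 at -0.13 (adjusted p 0.0449) and BAG3 at -0.16 (adjusted p 0.0205). HSPA6, a stress-inducible Hsp70, was low and higher in NeuT, with 0.499 and 0.733 CPM in treated Empty and 1.44 and 1.91 CPM in treated NeuT (1.41, edgeR adjusted p 0.00116), after 2.02 without the drug.

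More chaperone genes were called lower than higher in NeuT, under the drug and without it. Over all genes 20.0% were called lower and 21.7% higher under the drug, the background for the counts of each list. Of 44 tested genes of the Hsp70 system, its cochaperones and the heat shock response, 23 were lower and 6 higher under the drug, after 22 and 7 without it, with medians of -0.24 and -0.19. CRYAB, a small heat shock protein, had 30.8 and 29.7 CPM in treated Empty and 13.1 and 11.5 CPM in treated NeuT (-1.30). HSPB8, which works with BAG3, was at 50.9 and 52.5 CPM in treated Empty and 23.7 and 21.5 CPM in treated NeuT (-1.19). HSPH1, an exchange factor of Hsp70, differed by -0.58 and HSP90AA1 by -0.87. DNAJB5, a cochaperone, stood out in the other direction, at 3.57 and 2.88 CPM in treated Empty against 18.1 and 21 CPM in treated NeuT (2.62). HSPA1A and HSPA1B, the inducible Hsp70 genes, are near-identical copies and had at most 1 count in a library, so nothing is read from them.

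The proteasome list was lower for 26 of 36 subunits under the drug and for 19 without it, with a median of -0.26 after -0.16. Steps were small: PSMB2 differed by -0.44 and PSMC6 by -0.44. The immune-type members went the other way, with PSMB10 at 0.81 (39.4% of its exon bases overlap other genes), PSME1 at 0.40 and PSME2 at 0.35. ER chaperones and unfolded protein response genes were split, with 14 of 36 higher (38.9%) and 10 lower (27.8%), against 21.7% and 20.0% of all genes. The chaperone HSP90B1 had 876 and 801 CPM in treated Empty and 482 and 492 CPM in treated NeuT (-0.78), and CANX, CALR and PDIA4 were lower too, at -0.38, -0.34 and -0.28. ERN1, the ER stress sensor IRE1, had 9.34 and 10.1 CPM in treated Empty and 13.8 and 20.5 CPM in treated NeuT (0.81, edgeR adjusted p 0.00221; 0.50 without NeuT treated replicate 2). Without the drug it differed by 0.34 (edgeR adjusted p 0.147), and 5 of 17 alternatives called it, among them the replicate block (adjusted p 0.0238) and the fit of the 4 untreated libraries alone (adjusted p 0.0198). DNAJB9, an ER cochaperone, went from -0.04 to 0.39 and was called under the drug alone. HSPA5, the main ER Hsp70, differed by -0.02 (95% interval -0.14 to 0.11).

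**Figure D3:**
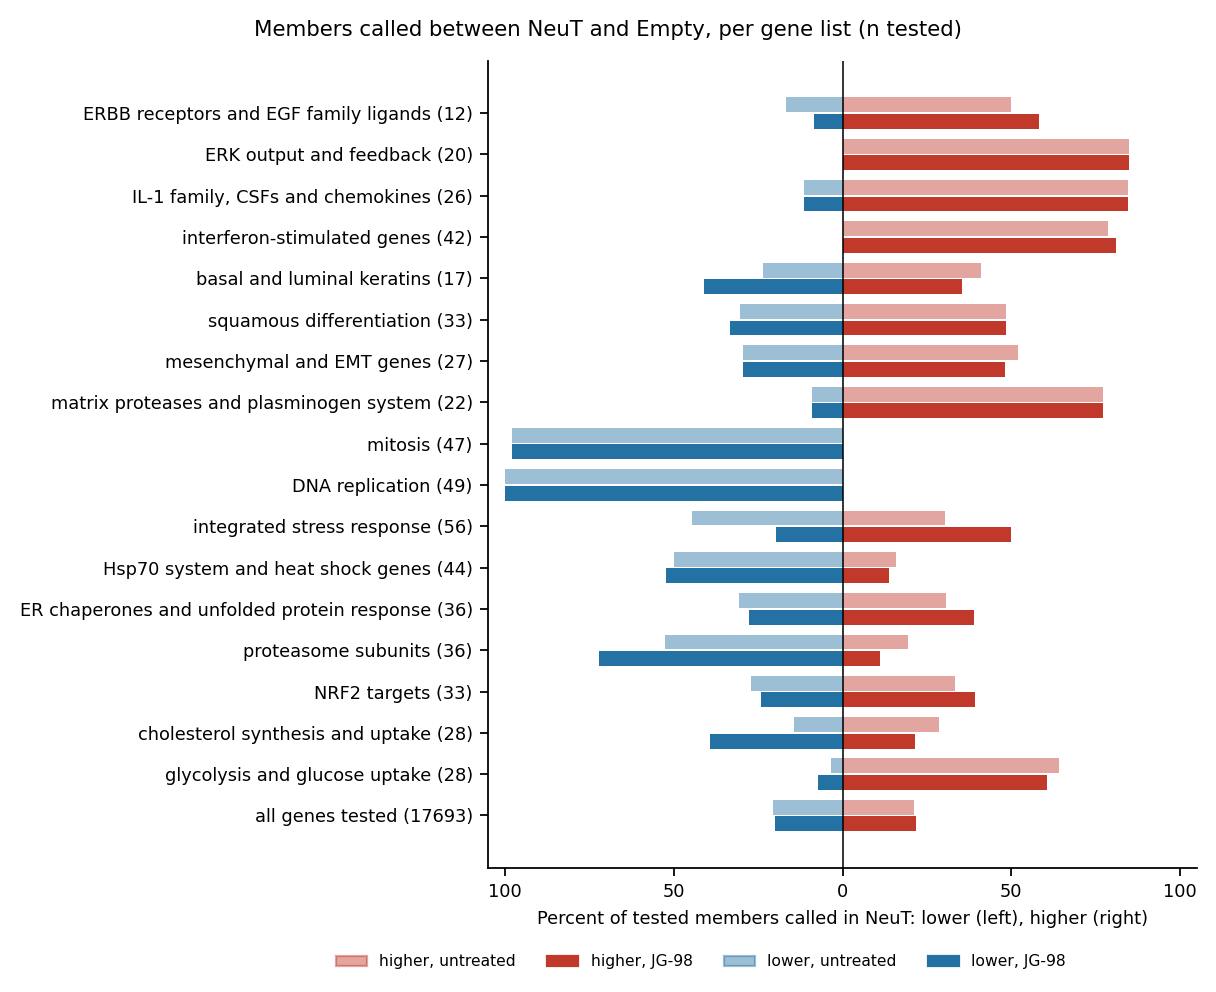
Bars show, for each gene list with its number of tested members, the percent called higher (right, red) and lower (left, blue) in NeuT by edgeR, pale without the drug and dark under JG-98, with all 17693 genes tested at the bottom. The integrated stress response goes from 17 higher and 25 lower to 28 higher and 11 lower of 56, while mitosis and DNA replication are almost wholly lower in both.

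Growth factor genes differed between the lines with and without the drug. Among 12 ERBB receptors and EGF-family ligands, 7 were higher and 1 lower under the drug, after 6 and 2 without it, with a median of 0.75 after 0.38. By unadjusted interaction p under 0.05, 4 members (33.3%, against 7.79% of all genes) had a larger NeuT minus Empty under the drug. After adjustment edgeR called an interaction for none of them on all libraries and for 3 with no filter on low counts, and DESeq2 called none. Calls by edgeR also appeared when NeuT treated replicate 1 was left out, which leaves 1 library in that group. AREG (chromosome 4, 74445136 to 74455005), an EGFR ligand, had 249 and 220 CPM in treated Empty and 987 and 1070 CPM in treated NeuT, a difference of 2.13 (SE 0.065, edgeR adjusted p 2.9e-13) beside 2.11 without the drug. The ligands EREG and TGFA differed by 1.70 and 0.94. HBEGF differed by 1.83, with treated NeuT libraries at 141 and 253 CPM. Its call was lost in the fit of the treated libraries alone and without either treated Empty library, with an edgeR adjusted p of up to 0.0708. NRG1, the ligand of ERBB3, went from 0.47 to 1.20, while ERBB3 was lower in NeuT (-0.39). Human ERBB2 had 86.3 and 87.2 CPM in treated Empty and 87.8 and 93.7 CPM in treated NeuT (0.06, edgeR adjusted p 0.406), which checks nothing about a rat gene.

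Genes that report and restrain ERK signalling were higher for 17 of 20 members in both comparisons, with medians of 0.84 and 0.73. By unadjusted interaction p under 0.05, 5 members (25%, against 7.79% of all genes) stood out. NeuT minus Empty was larger under the drug for 3 of them and smaller for 2. After adjustment neither edgeR nor DESeq2 called any on all libraries with the main filter. DUSP6 (chromosome 12, 89347235 to 89352501), an ERK phosphatase, had 16.2 and 15.8 CPM in treated Empty and 185 and 176 CPM in treated NeuT. That is an 11.3-fold ratio of means and 3.50 on the log2 scale (SE 0.067, edgeR adjusted p 1.3e-15), beside 3.45 without the drug. Other genes overlap 28.6% of its exon bases. SPRED3, a RAS pathway inhibitor, differed by 2.64. EGR1, an immediate early gene, was called in neither comparison.

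Inflammatory genes were called higher in NeuT with and without the drug. Of 26 genes of the IL-1 family, colony-stimulating factors and chemokines, 22 were higher and 3 lower in NeuT with and without the drug, and the same 25 genes kept their direction. Of the 26, 17 had at least 10 counts in every library; others, such as IL1B, passed the filter on low counts through the NeuT libraries and so had to differ. IL1B (chromosome 2, 112829751 to 112836903), which encodes the inflammatory cytokine interleukin-1 beta, had 0.157 and 0.119 CPM in treated Empty and 39.1 and 48.9 CPM in treated NeuT. The fitted log2 difference, given as a description, was 8.33, beside 9.07 without the drug. CSF3, the growth factor of neutrophils, had 0.472 and 0.477 CPM in treated Empty and 26 and 38.1 CPM in treated NeuT (6.07). CXCL8, a neutrophil attractant, had 20.7 and 18.7 CPM against 124 and 171 CPM (2.91). The 3 lower genes were CXCL16, IL18 and CCL28, at -0.74, -0.42 and -0.47. Without the drug CCL28 was called narrowly, at -0.25 and an edgeR adjusted p of 0.0469, and 9 of 17 alternatives lost that call.

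Interferon-stimulated genes were higher for 34 of 42 members under the drug and 33 without it, with medians of 1.02 and 1.03, and 34 of the 42, not the same set, had at least 10 counts in every library. IFI6 had 2.23 and 1.6 CPM in treated Empty and 25.3 and 22.9 CPM in treated NeuT (3.69), and IFIT1 had 0.682 and 0.614 CPM against 2.59 and 2.33 CPM (1.93). OAS2, an antiviral sensor, had 4 counts in the treated Empty libraries together and 565 in treated NeuT, a ratio of 126 with an exact 95% counting interval of 49.1 to 466. BST2, which tethers virus particles, had 2 counts against 225, with a ratio between 27.6 and 837 by that interval.

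Cell cycle genes were lower in NeuT almost throughout. Under the drug 46 of 47 mitosis genes and 49 of 49 DNA replication genes were called lower, the same numbers as without it. By unadjusted interaction p under 0.05, 15 mitosis genes (31.9%) and 6 replication genes (12.2%) stood out against 7.79% of all genes, and NeuT minus Empty was smaller under the drug, a wider gap, for 12 and 6 of them. After adjustment edgeR called none, and DESeq2 called 1 replication gene, with NeuT minus Empty smaller under the drug. Calls by edgeR in both lists appeared when NeuT treated replicate 1 was left out, which leaves 1 library in that group. The medians were -1.45 and -0.82 under the drug, beside -1.37 and -0.73 without it. CCNB1 (chromosome 5, 69167135 to 69178245), the cyclin of mitotic entry, had 284 and 285 CPM in treated Empty and 62.9 and 55.6 CPM in treated NeuT, a difference of -2.26 (SE 0.063, edgeR adjusted p 8.1e-14) beside -2.02. KIF20A, a kinesin of cell division, had 168 and 169 CPM against 35.1 and 30.8 CPM (-2.35). MKI67, a proliferation marker, differed by -1.45 and MCM2, of the replicative helicase, by -0.96. Among replication genes E2F2, a transcription factor of S phase entry, differed by -1.49. TYMS, which makes thymidylate, had 33.4 and 31.3 CPM against 12.9 and 11.6 CPM, and 47.5% of its exon bases overlap other genes. The mitosis gene not called was NUSAP1, at under 0.3 CPM in each library, with 81.4% of its exon bases shared with other annotated genes. In bulk RNA, fewer cells of a kind, here dividing cells, and less RNA per cell cannot be told apart.

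**Figure D4:**
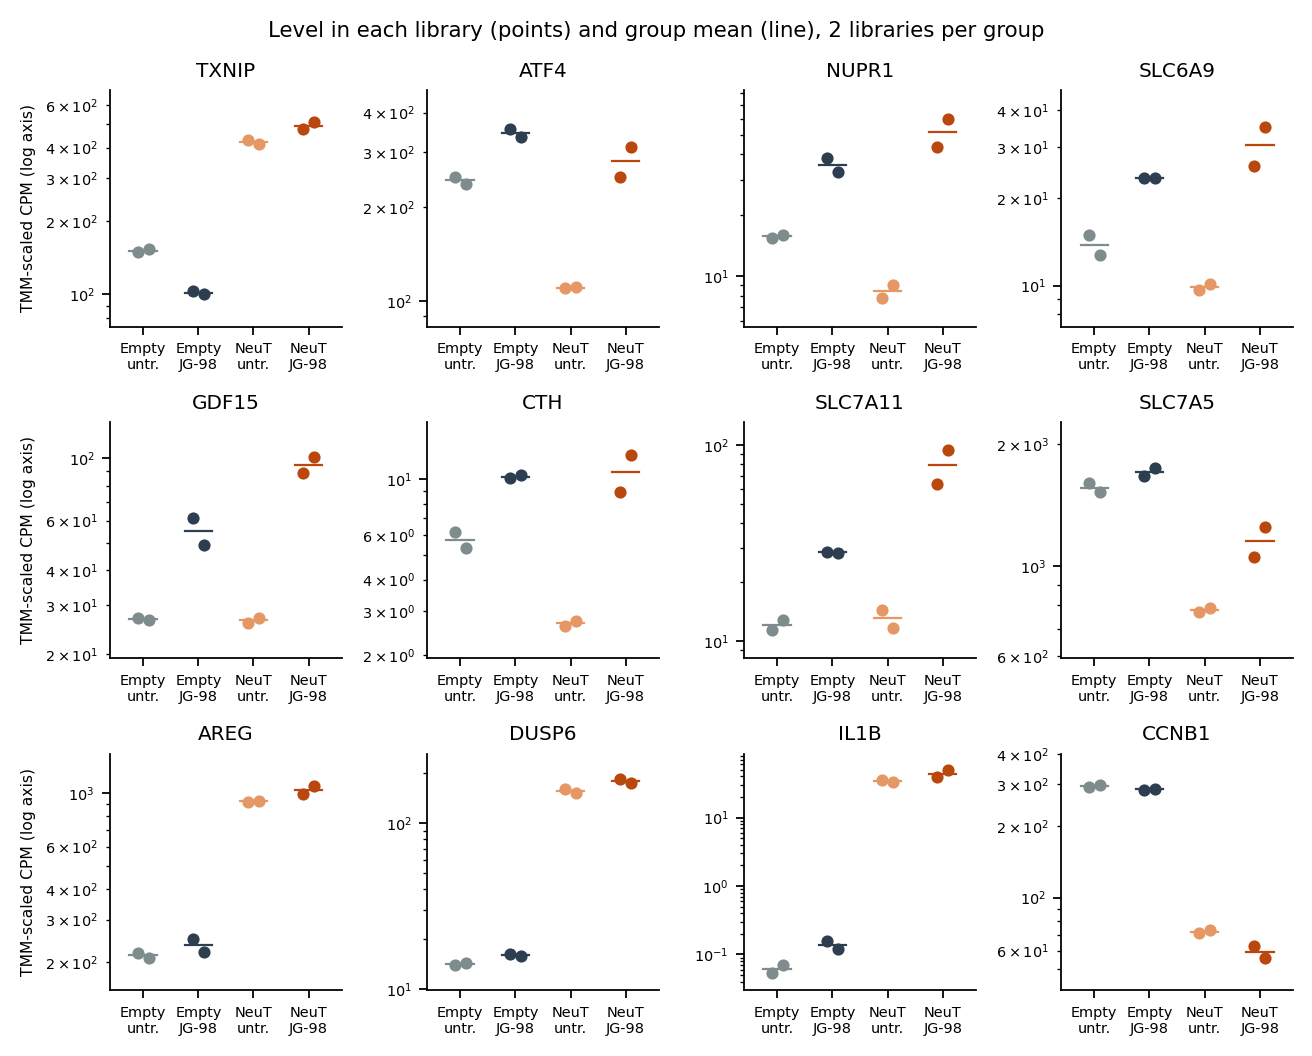
TMM-scaled CPM on a log axis for 12 genes in every library (points), with group means (lines) for untreated and JG-98-treated Empty and NeuT cells. AREG, DUSP6, IL1B and CCNB1 keep the line difference under the drug, CTH has overlapping libraries under it, GDF15 and SLC7A11 have a called line difference under the drug alone, and TXNIP is at its lowest in treated Empty (103 and 100 CPM) and its highest in treated NeuT (478 and 508 CPM).

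Epithelial genes differed in both directions. Of 17 keratins, 6 were higher and 7 lower under the drug, after 7 and 4 without it, with medians of -0.03 and 0.16. NeuT minus Empty was larger under the drug for 1 of the 17, and 1 had an unadjusted interaction p under 0.05. KRT5, a basal keratin, had 5150 and 4960 CPM in treated Empty and 7530 and 6970 CPM in treated NeuT (0.52), and KRT80 had 358 and 359 CPM against 85.3 and 93.7 CPM, 4 times as much in Empty by the means. KRT6B was higher by 1.81, though near-identical copies of KRT6 make the split of reads between them uncertain. Squamous differentiation genes were 16 higher and 11 lower of 33. The kallikrein proteases KLK5 and KLK6 were lower, at -2.27 and -2.68, and KLK5 had 962 and 998 CPM in treated Empty against 217 and 191 CPM in treated NeuT. The antimicrobial proteins S100A8 and S100A9 were higher by 2.86 and 2.47. SERPINB2, an inhibitor of plasminogen activators, was higher by 3.16.

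Mesenchymal and EMT genes were 13 higher and 8 lower of 27, with a median of 0.09. FN1, fibronectin, had 377 and 420 CPM in treated Empty and 1940 and 2410 CPM in treated NeuT (2.45), and ZEB1 and ZEB2, repressors of epithelial genes, were higher by 1.92 and 2.01. SNAI1, another such repressor, was lower (-1.65), and CDH1, E-cadherin, was slightly higher (0.32). Matrix proteases and the plasminogen system were higher for 17 of 22 in both comparisons, with medians of 0.93 and 0.90, and 19 had at least 10 counts in every library. MMP1, a collagenase, had 2 counts in the treated Empty libraries together and 297 in treated NeuT, a ratio of 133 (exact 95% counting interval 36.5 to 1100). MMP10 had 6 against 491, a ratio of 73.3 (33.4 to 201). MMP7 was lower in NeuT, at -1.59.

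Metabolic lists were mixed. Of 28 genes of glycolysis and glucose uptake, 17 were higher and 2 lower under the drug, after 18 and 1, with medians of 0.33 and 0.34. PFKFB4, which makes an activator of glycolysis, had 9.4 and 11.7 CPM in treated Empty and 36.7 and 27.1 CPM in treated NeuT (1.58). Cholesterol genes went from 8 higher and 4 lower without the drug to 6 higher and 11 lower of 28 under it, with medians of 0.04 and -0.12. Under the drug that is 21.4% higher and 39.3% lower, against 21.7% and 20.0% of all genes, so the higher share was near that of all genes. Without the drug 21.2% of all genes were higher and 20.8% lower. All 7 members with an unadjusted interaction p under 0.05 (25%, against 7.79% of all genes) had a smaller NeuT minus Empty under the drug, and neither edgeR nor DESeq2 called an interaction in the list after adjustment. With no filter on low counts edgeR called 1. Calls by edgeR in both directions also appeared when NeuT treated replicate 1 was left out, which leaves 1 library in that group. SQLE, squalene epoxidase, had 360 and 361 CPM in treated Empty and 316 and 327 CPM in treated NeuT (-0.17), beside 0.04 without the drug. HMGCS1, at the start of the pathway, went from 0.26 to 0.05 (95% interval -0.08 to 0.17). NRF2 targets were 13 higher and 8 lower of 33, which is 39.4% and 24.2% against 21.7% and 20.0% of all genes, so the lower share was near that of all genes. TXNIP, called higher, was counted in this list and also in that of glycolysis and glucose uptake. GSR and GCLM of glutathione metabolism were lower, at -0.58 and -0.56, AKR1C1 and AKR1B10, which reduce carbonyls, were higher by 1.26 and 1.36, and NQO1 was not called (-0.08).

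The largest called differences in each direction, where treated libraries averaged 50 counts or more and the lines did not overlap, included several genes with few or no counts in one line. NTSR1 (chromosome 20, 62708836 to 62762771), the neurotensin receptor, had no count in treated Empty and 2.35 and 2.91 CPM in treated NeuT, at least 40.5-fold higher against a floor of 3 counts per library. LCE3E, a cornified envelope gene of a family of close copies, had no count in treated Empty and 1.89 and 2.65 CPM in treated NeuT, at least 34.9-fold higher. HEPHL1, a copper-dependent ferroxidase, had 3 counts against 688, a ratio of 205 (70 to 998). CD74, a chaperone of MHC class II, had 7 counts against 724, a ratio of 92.6 (44.7 to 231). In the other direction GPR17, an orphan receptor, had 2.28 and 2.86 CPM in treated Empty and 0.111 CPM in each treated NeuT library (-4.51). MGP, matrix Gla protein, which inhibits calcification, had 46.2 and 48.6 CPM against 5.53 and 3.03 CPM (-3.47). TSPAN2, a tetraspanin, had 31.4 and 29.9 CPM against 4.24 and 3.15 CPM (-3.05). MAB21L4, CACNG4, SPTSSB, RASD2 and BMP5 were lower too, at -4.02, -3.62, -3.48, -3.23 and -3.16. All 16 of these genes chosen by size, IL1B, MMP1, OAS2 and BST2 included, had the same sign without the drug. Those with few or no counts in 1 line passed the filter on low counts through the other line and so had to differ. Their shared sign adds nothing to the persistence described above.

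Besides NUPR1 and SLC6A9, 1 gene was called in opposite directions in the line comparisons. MAP3K13, a stress kinase, was higher in untreated NeuT (0.25) and lower in treated NeuT (-0.26), with 23.9 and 23.7 CPM in treated Empty and 21.1 and 18.6 CPM in treated NeuT. The call under the drug was lost in 4 of 17 alternatives (edgeR adjusted p up to 0.194) and the call without it in 3 of 17 (edgeR adjusted p up to 0.238). These steps were small, and its interaction of -0.51 had an edgeR adjusted p of 0.349. Some genes outside the stress list had wider gaps under the drug by unadjusted interaction p, and were chosen after their values were seen. C5AR2, a complement receptor, had 5.56 and 5.52 CPM in treated Empty and 20.4 and 27.8 CPM in treated NeuT (2.12, beside 1.04). PTGS2, the inducible cyclooxygenase, had 2.47 and 2.15 CPM against 8.96 and 14.3 CPM (2.35, beside 1.03). Their interactions of 1.08 and 1.32 had edgeR adjusted p of 0.122 and 0.296.

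Markers of the labelled cell type were present in every library. The summed level of 12 markers of mammary basal epithelium was 25600 and 25300 CPM in treated Empty and 35100 and 39200 CPM in treated NeuT, and 9 were called higher and 2 lower in NeuT. Luminal markers summed to 3350 and 3290 CPM in treated Empty and 4010 and 3880 CPM in treated NeuT. Of the 12 listed 9 were tested, with 2 called higher and 2 lower in NeuT and a median log2 difference of 0. Fibroblast markers summed to 80.9 and 78.1 CPM in treated Empty and 179 and 165 CPM in treated NeuT, of which DCN, the matrix protein decorin, made up 3.25 and 2.47 CPM in Empty and 77.5 and 62.4 CPM in NeuT, while 4 of 9 were too low to test. Blood and immune markers summed to 5.51 and 6.56 CPM in treated Empty and 12.6 and 11.5 CPM in treated NeuT, with 6 of 8 too low to test. Endothelial markers summed to 12.3 and 17.6 CPM in treated Empty and 11.4 and 9.55 CPM in treated NeuT, and of 5 tested 2 were called higher and 2 lower in NeuT. The part of other cells in the line differences was not tested.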

How the data were processed

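RNA was sequenced from 8 libraries, 2 for each of 4 groups. The authors deposited 1 table of counts per gene, which holds raw featureCounts counts for all libraries per the file headers. The submitters' processing notes name Trim Galore 0.5.0, FastQC 0.11.7, HISAT2 2.1.0, SAMtools 1.9, featureCounts 1.6.3 and hg38; the annotation release, strand setting and treatment of reads with several matches are not given in the sources used here. Columns were matched to samples by name, and 60261 of 60617 gene identifiers had a symbol. Replicates differed beyond sampling noise. Their mean chi-square per gene, over genes with 10 counts or more in the pair, was 21 in treated NeuT and 7.82 in treated Empty. It was 4.5 in untreated NeuT and 4.43 in untreated Empty. Counts entered edgeR 4.0.16 (R 4.3.3) as deposited: filterByExpr (minimum count 10, total 15), TMM scaling, and 1 robust quasi-likelihood fit with a coefficient per group over all libraries. Contrasts gave NeuT minus Empty under the drug, without it, and their difference. Benjamini-Hochberg adjustment ran over 17693 genes, with a threshold of 0.05. The standard error is the size of the difference divided by the square root of F. With 2 libraries per group, the tests rest on dispersion shared across genes.

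Gene lists were described by counts and medians, with no test. The members, the 17 lists and the panel of 33 genes were chosen with earlier results of these data known. Named genes were, first, the 8 largest called differences in each direction where treated libraries averaged 50 counts or more and the lines did not overlap. To these were added up to 6 genes per class of called interaction and every list member with one, the 2 largest called members of each list in each direction, and the panel. Other genes named, among them GDF15, CTH, SLC7A5, MTHFD2, C5AR2, PTGS2, NRG1 and those called in opposite directions, and the roles within the stress list, were chosen after their values were seen. Alternatives were RLE factors, total counts, no filter, a minimum of 10 counts per library, DESeq2 1.42.0, limma-voom (limma 3.58.1), no robust estimation, the replicate number as a block, a minimum log2 difference of 1, a threshold of 0.01, the 4 compared libraries alone, and each library left out. The scripts were tested on simulated data. Gene coordinates are those of the count table (GRCh38), and promoter sequences are RefSeq's (GRCh38.p14). The authors' own tables of drug effects were not used here.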

Additional observations from a re-analysis of the deposited data

Results flagged for a closer look

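TXNIP differed between the treated and the untreated comparison of the lines by the test of that difference itself. NeuT minus Empty was larger under JG-98 by 0.80 on the log2 scale (SE 0.076), with an edgeR interaction adjusted p of 1.8e-04. Relative to the untreated cells of the same line, treated Empty libraries were lower (103 and 100 CPM beside 149 and 154) and treated NeuT libraries higher (478 and 508 CPM beside 432 and 415). The largest adjusted p over the alternatives was 0.00941, without Empty untreated replicate 2.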

How the results depend on the processing

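The count of called interactions, 1 with edgeR, was the least stable result. It was 2 with total counts, 138 with no filter on low counts, 3 without robust estimation, 26 with DESeq2 and 0 with edgeR and a minimum log2 difference of 1 (1378 genes had an unadjusted p under 0.05 with no minimum), and it ranged from 1 to 777 when 1 library was left out, the highest without NeuT treated replicate 1. It stayed 1 with RLE factors, limma-voom, a filter of 10 counts in every library and a threshold of 0.01. A minimum log2 difference of 1 also lowered the calls under the drug to 685, those without the drug to 609 and those shared in direction to 494, since it asks for larger differences. Leaving out 1 library gave 5951 to 7409 calls under the drug, 5461 to 8218 without it and 4586 to 5782 shared. Without NeuT treated replicate 2 the interaction count was 15; why the treated NeuT libraries weigh so much was not tested, and neither was the cause of the other moves. With total counts in place of TMM, 41.0% of the calls under the drug were higher in NeuT against 52.0%, and 40.7% against 50.5% without the drug, as the median of all genes moved to -0.076 and -0.084.

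Libraries share only a replicate number: for the pairing, the correlation of replicate differences between groups ranged from -0.101 to 0.244 over 9551 genes. The highest, 0.244, was between treated Empty and treated NeuT, the groups compared here, and the next was 0.064. The main fit has no term for the replicate number. With the replicate block, edgeR called 7453 genes under the drug, 7497 without it, 5810 in the same direction in both and 1 interaction. Single genes were recomputed for 106 genes, those of the naming rule and some chosen after their values were seen; other genes named in the text were not followed one by one. Of the 106, 94 were called under the drug, 84 of them at 0.05 in every alternative that gave an adjusted p for the gene, and 0 reversed. The 10 that lost the call somewhere were ATF4, CHAC1, EBP, GPI, HBEGF, MAP3K13, MYLIP, NUPR1, SLC16A3 and SLC6A9. Of the 12 not called, ALDH1L2, BAG3, HSPA8, NQO1, PSAT1 and SLC1A4 were called somewhere.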
